A study of Mus musculus with 3 samples.

Results

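Transcripts of 3 Pim kinases (Pim1, Pim2 and Pim3) and 4 SOCS family inhibitors (Cish, Socs1, Socs2 and Socs3) were followed in sorted mouse natural killer (NK) cells, 7 genes of 25906 in the count matrices. The 7 genes were chosen by earlier results of these same data, in which Pim2 stood among the genes with the largest ratios in lung at 6 h, so their levels and time ratios are descriptions. Live cells positive for NK1.1 and NKp46 came from lungs and blood of wild-type female mice aged 9 weeks, on a C57BL/6 background, which were naive or had received 100000 PyMT tumor cells, a mouse mammary carcinoma line, into a vein 6 h or 14 days earlier. That dose is the one in the labels and methods, while a figure legend of the study gives a larger one. Each condition was 1 droplet library that pooled lung and blood cells carrying different hashtags, antibody-bound barcodes that mark the tissue, with 5 mice per group whose cells the files do not tell apart. With 1 library per condition there is no replicate spread and no test was made. All intervals are 95% intervals that cover counting error only, and time cannot be told apart from library.

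Pim kinases are constitutively active serine/threonine kinases, so their activity follows the amount of protein made, and they favour survival, growth and protein synthesis. Their genes are induced by cytokines that signal through Janus kinases (JAK) and STAT transcription factors, among them IL-2, IL-12 and IL-15 in NK cells. The same route induces Cish and the Socs genes, whose products bind activated receptors or JAKs through an SH2 domain, recruit a ubiquitin ligase through the SOCS box and so dampen the signal. Cish is known as a brake on IL-15 signalling in NK cells.

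By position (GENCODE M21, GRCm38), Pim1 (ENSMUSG00000024014) spans chr17:29490753-29496112, Pim2 (ENSMUSG00000031155) chrX:7878262-7883432 and Pim3 (ENSMUSG00000035828) chr15:88862186-88865726, all on the plus strand. Cish (ENSMUSG00000032578) spans chr9:107296026-107302784 on the plus strand. Socs1 (ENSMUSG00000038037) at chr16:10782240-10785536, Socs2 (ENSMUSG00000020027) at chr10:95385362-95417180 and Socs3 (ENSMUSG00000053113) at chr11:117966079-117970047 lie on the minus strand.

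Promoter sequence is shown for 4 members, to set the genes that were higher after injection beside one that differed by tissue. RefSeq promoters of GRCm38.p6, 250 bases before to 50 after the start, were found for 6 of 7 members, all but Socs2. They were searched on both strands, after the values were seen, for the STAT motif TTCNNNGAA and the interferon regulatory factor (IRF) motif GAAANNGAAA, which 8.30% and 3.44% of 32851 such promoters hold. Capitals mark the matches, which are descriptions and not sites of binding. Cish (chr9:107296654-107296683, plus strand) has 2 STAT matches, beginning at bases 1 and 12 with the RefSeq start as base 1, in an exon and the 5′ UTR:
Cish: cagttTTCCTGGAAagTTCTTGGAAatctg
Socs3 (chr11:117969502-117969531, minus strand) has 1, beginning 154 bases before the RefSeq start and within a longer GENCODE transcript, outside its exons:
Socs3: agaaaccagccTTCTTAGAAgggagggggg
Socs1 (chr16:10785537-10785656, minus strand) has 2 overlapping IRF matches and no STAT match, outside the annotated Socs1 gene (other genes were not checked):
Socs1: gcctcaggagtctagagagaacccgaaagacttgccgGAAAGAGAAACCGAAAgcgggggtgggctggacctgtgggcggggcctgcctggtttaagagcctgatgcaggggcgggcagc
Pim2 (chrX:7878142-7878261, plus strand), directly before the annotated gene, has neither, and neither have the promoters of Pim1 and Pim3:
Pim2: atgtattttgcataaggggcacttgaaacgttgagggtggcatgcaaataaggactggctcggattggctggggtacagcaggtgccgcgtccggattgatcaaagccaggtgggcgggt

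The 6 groups held 3676 lung and 4367 blood cells in the naive library, 4680 and 2746 at 6 h, and 3575 and 2069 at 14 days. Their unique molecular identifiers (UMIs, 1 per captured transcript) summed to between 16936897 and 35922737, and levels are given per 1000000 UMIs of a group (CPM). Median depth was 5909.5 UMIs per cell in naive lung and 6351 to 7524 in the other groups. Transcripts of the NK markers Ncr1, Klrb1c, Prf1, Gzma, Klre1 and Nkg7 were detected in 87.0% to 99.9% of cells of each group and Eomes in 64.1% to 73.3%, whereas Cd3e reached 0.923%, Cd79a 0.252% and Lyz2 1.82% of cells at most. Other T cell receptor complex genes were found in more cells, Cd3d in 2.67% to 5.46% and Trac in 6.64% to 11.2%. The 7 myeloid markers summed to 15.8 CPM in naive lung and 27.7 CPM in naive blood, to 29.5 and 51.5 CPM at 6 h, and to 23.5 and 94.5 CPM at 14 days. Lyz2 in blood was at 0.600 CPM in naive mice, 44.9 CPM at 6 h and 89.3 CPM at 14 days, while S100a9 was at 13.3 CPM in naive blood and at 0 at both later times. Cells with a UMI of Lyz2, S100a8 or S100a9 were 0.160% to 1.85% of each group, and without them, an alternative added after these values were seen, as many members were past 1.5-fold in each of the 7 comparisons given here. Free RNA could make up at most 12.1% of UMIs in naive lung and 1.73% to 2.82% in the other groups. Between 6 and 16 cell barcodes were shared by each pair of libraries. Which hashtag marked lung was taken from the sequence of names in the study's methods.

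Among the kinases, Pim1 differed least between groups. It had 394 CPM (95% CI 386 to 402) in naive lung and 342 CPM (95% CI 336 to 349) in naive blood. At 6 h it had 485 CPM (95% CI 477 to 492) in lung and 381 CPM (95% CI 373 to 389) in blood, and at 14 days 381 and 346 CPM. Lung at 6 h was therefore the high group, and the highest level was 1.42 times the lowest. After each cell was thinned to 3000 UMIs, a Pim1 UMI was present in 56.5% to 63.0% of cells, against 76.2% to 84.0% unthinned.

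Pim2 was lowest in both naive groups and highest at 14 days. Its level was 31.0 CPM (95% CI 28.8 to 33.3) in naive lung and 34.1 CPM (95% CI 32.0 to 36.2) in naive blood. At 6 h it was 56.3 CPM (95% CI 53.9 to 58.8) in lung and 62.6 CPM (95% CI 59.3 to 65.9) in blood. At 14 days it was 79.6 CPM (95% CI 76.4 to 83.0) in lung and 69.7 CPM (95% CI 65.8 to 73.8) in blood. All 4 groups from injected mice lay above both naive groups, with intervals that did not overlap, while the naive groups did not differ beyond counting error. The share of thinned cells with a Pim2 UMI was 6.85% in naive lung and 16.1% in lung at 14 days (13.2% and 29.1% unthinned), and free RNA could account for at most 16.4% of Pim2 UMIs in naive lung and 2.10% in lung at 14 days. The variance of thinned Pim2 counts over cells was 1.39 to 1.93 times their mean, highest in lung at 14 days, where 4.89% of cells had at least 2 Pim2 UMIs.

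Pim3 separated the tissues instead. It had 53.1 CPM (95% CI 50.2 to 56.1) in naive lung, 50.6 CPM (95% CI 48.3 to 53.0) in lung at 6 h and 36.7 CPM (95% CI 34.5 to 39.0) in lung at 14 days. In blood it had 16.4 CPM (95% CI 15.03 to 17.96), 19.7 CPM (95% CI 17.9 to 21.6) and 19.9 CPM (95% CI 17.8 to 22.1) in the same order. No lung group overlapped a blood group.

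Of the inhibitors, Cish had the widest range over time. It had 7.54 CPM (95% CI 6.47 to 8.74) in naive lung and 10.2 CPM (95% CI 9.10 to 11.4) in naive blood. At 6 h lung had 14.9 CPM (95% CI 13.7 to 16.3) and blood 15.4 CPM (95% CI 13.8 to 17.1), which did not differ beyond counting error. At 14 days lung had 30.5 CPM (95% CI 28.5 to 32.6) and blood 16.9 CPM (95% CI 15.04 to 19.02). Lung was thus the lowest of the 6 groups in naive mice and the highest at 14 days, 4.05 times higher. A Cish UMI was present in 1.95% of thinned cells of naive lung and 7.41% of lung at 14 days (4.22% and 16.3% unthinned), with free RNA at most 18.8% and 2.62% of the Cish UMIs.

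Socs1, which inhibits JAKs downstream of interferon and other receptors, was higher in lung than in blood in each library and higher after injection in both tissues. Lung had 41.5 CPM (95% CI 38.9 to 44.1), 55.0 CPM (95% CI 52.6 to 57.4) and 70.0 CPM (95% CI 66.9 to 73.1) in naive mice, at 6 h and at 14 days. Blood had 29.6 CPM (95% CI 27.6 to 31.6), 48.5 CPM (95% CI 45.6 to 51.5) and 49.6 CPM (95% CI 46.3 to 53.1). The 2 blood groups from injected mice did not differ beyond counting error.

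The level of Socs2, known as a feedback inhibitor of growth hormone signalling, rested on 153 to 259 UMIs per group. It had 6.52 CPM in naive lung, 6.50 CPM in naive blood, 7.21 CPM in lung and 8.92 CPM in blood at 6 h, and 7.95 CPM in lung at 14 days. Only blood at 14 days, at 11.6 CPM (95% CI 10.0 to 13.3), differed from its neighbour in this order beyond counting error.

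Socs3, the inhibitor of receptors that signal through gp130 and STAT3, had 32.8 CPM (95% CI 30.5 to 35.2) in naive lung, 38.5 CPM (95% CI 36.5 to 40.6) in lung at 6 h and 29.1 CPM (95% CI 27.1 to 31.1) in lung at 14 days. Blood had 5.24 CPM (95% CI 4.45 to 6.12), 7.61 CPM (95% CI 6.50 to 8.85) and 7.32 CPM (95% CI 6.09 to 8.73). All lung groups lay above all blood groups, and the highest was 7.36 times the lowest. Free RNA could account for at most 8.92% of the Socs3 UMIs of any group.

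**Figure D1:**
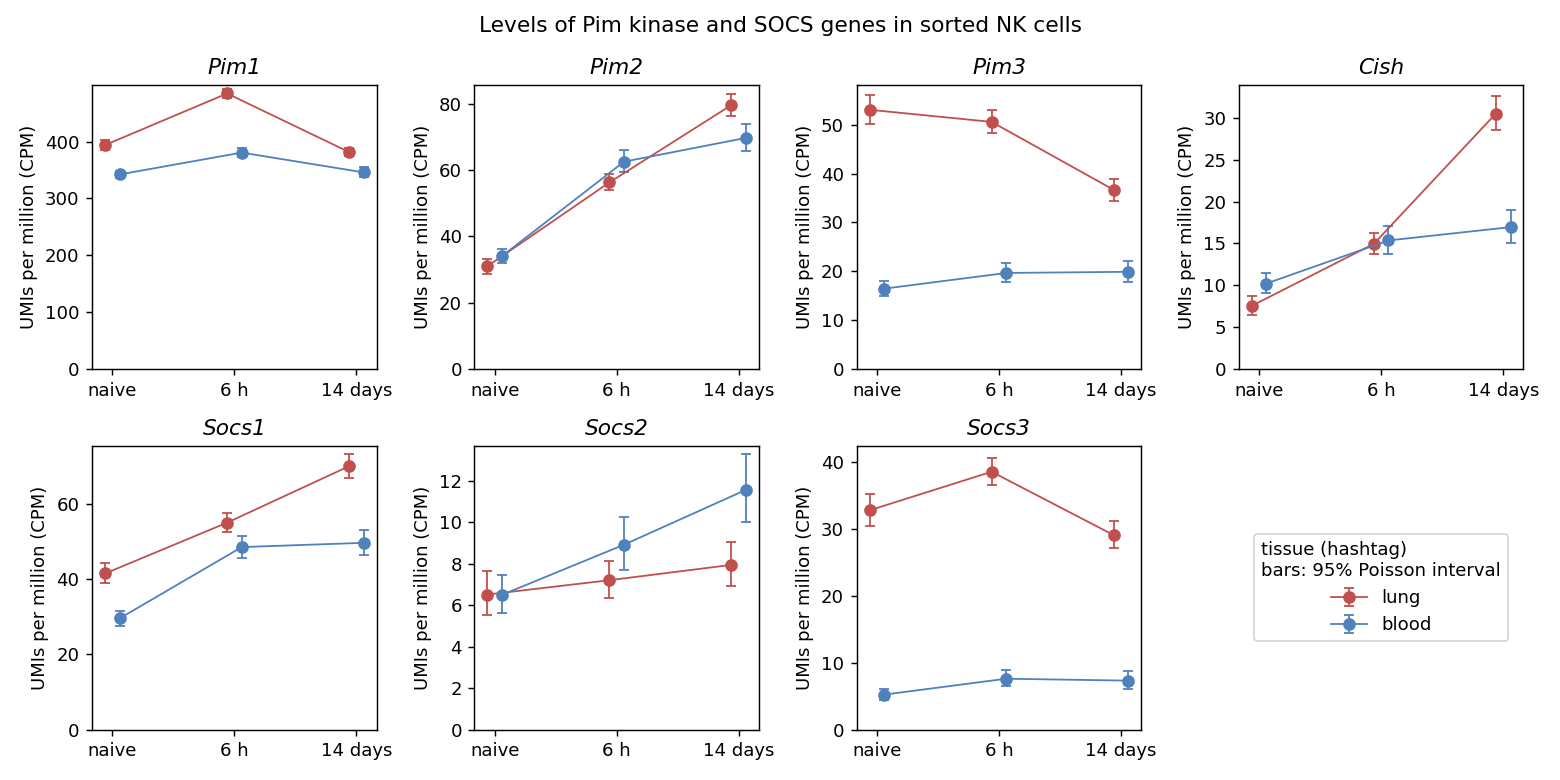
Levels of the 7 genes in CPM (vertical axes, each from 0) in naive mice and at 6 h and 14 days (horizontal axis, not to scale), with lung in red, blood in blue and bars for 95% Poisson intervals. Pim2, Cish and Socs1 were lowest in the naive groups of each tissue, whereas Pim3 and Socs3 were higher in each lung group than in each blood group.

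At 6 h over naive, 2 of 7 members were past 1.5-fold in lung, both higher, where 0.487% of the 8007 genes that reached 10 CPM in either group were past 1.5-fold higher and 0.0874% past it lower. Over the 7 comparisons, 5 to 7 of the 7 members reached this level, Socs2 only where blood at 14 days was compared and Socs3 not within blood. Since these contrasts were used to choose the genes, nothing is read from these shares. Cish had a log2 ratio of CPM of 0.99 (95% CI 0.74 to 1.24) and Pim2 of 0.86 (95% CI 0.74 to 0.99). Socs1 (0.41), Pim1 (0.30) and Socs3 (0.23) were higher by less, with intervals above 0, and those of Socs2 (0.15) and Pim3 (-0.07) spanned 0. Cish passed the level of 10 CPM only through the group in which it was higher, in lung at 14 days as well.

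In blood at 6 h, 3 of 7 members were past 1.5-fold, all higher, against 0.283% of 8114 genes higher and 0.234% lower. Pim2 had a log2 ratio of 0.88 (95% CI 0.76 to 1.00), Socs1 of 0.71 (95% CI 0.58 to 0.84) and Cish of 0.59 (95% CI 0.36 to 0.82). The ratio of Cish lay at the limit of 1.5-fold and was past it in 9 of 15 alternative settings. All 7 members were above 0, with Socs3 at 0.54, Socs2 at 0.46, Pim3 at 0.26 and Pim1 at 0.15. The median log2 ratio of the 7 was 0.30 in lung and 0.54 in blood, and that of all genes tested -0.07 and -0.06.

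At 14 days over naive, 3 of 7 members were past 1.5-fold in lung, all higher, where 4.64% of 8108 genes were past it higher and 10.9% lower. Cish had a log2 ratio of 2.02 (95% CI 1.78 to 2.26), Pim2 of 1.36 (95% CI 1.24 to 1.48) and Socs1 of 0.75 (95% CI 0.64 to 0.87). Socs2 was at 0.29 (95% CI -0.02 to 0.59), Pim1 at -0.05 and Socs3 at -0.17. Pim3 was lower, at -0.53 (95% CI -0.65 to -0.41). In this library the median of genes with at least 50 CPM was shifted to -0.25 in lung and -0.20 in blood, and relative to it Pim1 in lung stood at 0.21, Socs3 at 0.08 and Pim3 at -0.28. Erythroid transcripts summed to 82.0 CPM in lung at 14 days and to at most 0.317 CPM elsewhere, but all of it came from 4 cells, and Cish stood at 2.01 and Pim2 at 1.36 without them.

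In blood at 14 days, 4 of 7 members were past 1.5-fold, all higher, against 0.949% of 8117 genes higher and 3.01% lower. Pim2 had a log2 ratio of 1.03 (95% CI 0.91 to 1.16), Socs2 of 0.83 (95% CI 0.54 to 1.12), Socs1 of 0.75 (95% CI 0.61 to 0.88) and Cish of 0.73 (95% CI 0.49 to 0.97). Socs2 passed the level of 10 CPM only through the group at 14 days, in which it was higher. Socs3 was at 0.48, Pim3 at 0.27 and Pim1 at 0.01. Without cells holding a UMI of Lyz2, S100a8 or S100a9, Pim2 was at 1.04 and Socs2 at 0.84. The median of the 7 was 0.29 in lung and 0.73 in blood, against -0.19 and -0.15 over all genes tested.

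**Figure D2:**
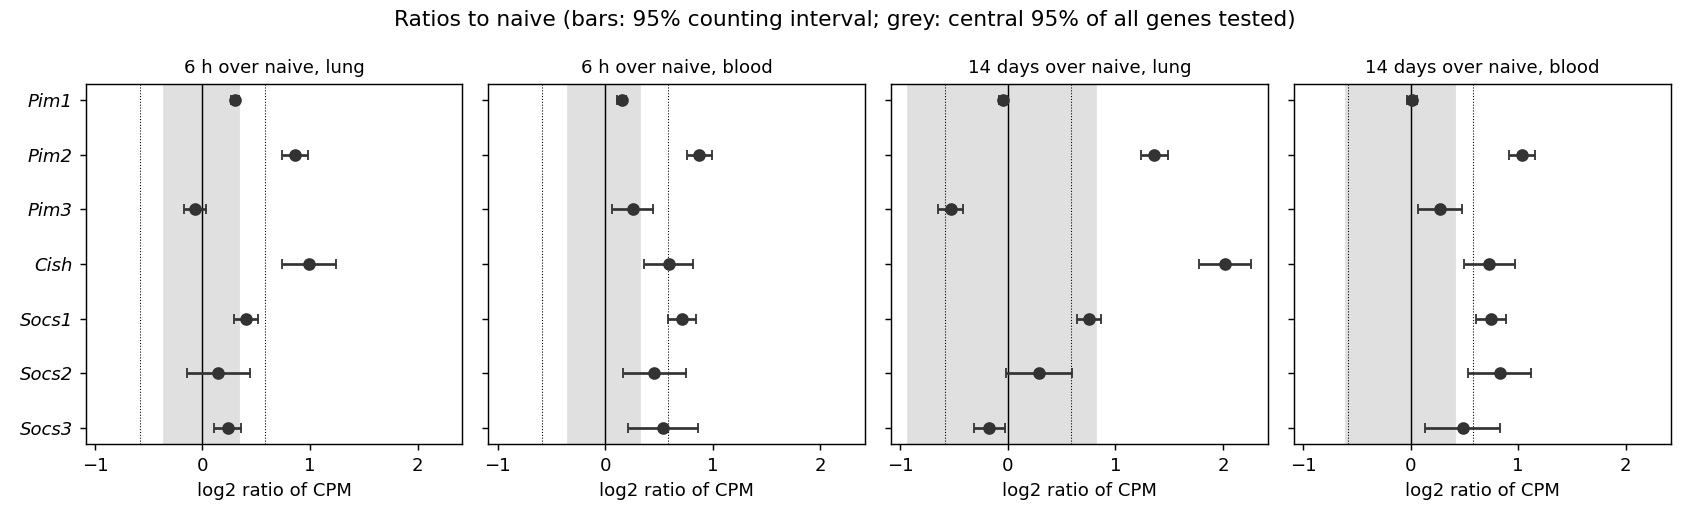
Log2 ratios of CPM to the naive group of the same tissue (horizontal axes) for the 7 genes, with 95% counting intervals, dotted lines at 1.5-fold and a grey band for the central 95% of all genes tested. Pim2 and Cish lay right of the band in all 4 panels, and the band was widest in lung at 14 days.

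The difference between tissues in the 14-day ratio (lung minus blood, on the log2 scale) was 1.29 (95% CI 0.96 to 1.61) for Cish and 0.33 (95% CI 0.16 to 0.50) for Pim2. It was -0.81 (95% CI -1.04 to -0.58) for Pim3, -0.66 (95% CI -1.02 to -0.29) for Socs3 and -0.54 (95% CI -0.96 to -0.13) for Socs2. For Socs1 it was 0.01 (95% CI -0.17 to 0.18). At 6 h the difference for Cish was 0.40 (95% CI 0.07 to 0.73), that for Socs1 was -0.31 (95% CI -0.48 to -0.14), and Pim2 had -0.02 (95% CI -0.18 to 0.15).

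In lung over blood of the same library, 2 of 7 members were past 1.5-fold in naive mice, both higher, where 6.50% of 8212 genes were past it higher and 3.95% lower. These were Socs3, with a log2 ratio of 2.65 (95% CI 2.40 to 2.90), and Pim3, with 1.69 (95% CI 1.54 to 1.84). Socs3 passed the level of 10 CPM only through lung in all 3 libraries. At 6 h the same 2 were past it, at 2.34 (95% CI 2.11 to 2.58) and 1.36 (95% CI 1.21 to 1.52), against 6.11% of 8173 genes higher and 3.40% lower. At 14 days 3 of 7 were past it, Socs3 at 1.99 (95% CI 1.72 to 2.27), Pim3 at 0.88 (95% CI 0.70 to 1.06) and Cish at 0.85 (95% CI 0.65 to 1.05), against 5.75% of 8103 genes higher and 3.96% lower. Cish had been on the blood side in naive mice, at -0.44 (95% CI -0.71 to -0.16), and near equal at 6 h, at -0.04 (95% CI -0.24 to 0.16). Socs1 was at 0.49, 0.18 and 0.50 in the 3 libraries and Pim1 at 0.20, 0.35 and 0.14.

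Lung was digested with enzymes for the sort and blood was not, so tissue and preparation cannot be told apart. A list of 18 stress and immediate early genes summed to 4487 to 4988 CPM in lung groups and 2352 to 2442 CPM in blood groups, with 10 of 15, 9 of 14 and 11 of 17 genes tested past 1.5-fold higher in lung in the 3 libraries in turn and 1, 1 and 0 lower. Among them Fos had log2 ratios of 2.65 in naive mice and 3.42 at 6 h, Junb had 2.26 at 6 h, and Egr1 was lower in lung, at -1.02 in naive mice. Cells without a UMI of 7 of these genes were 30.2% to 33.5% of cells of lung groups and 55.3% to 61.9% of blood groups. The 7 were Hspa1a, Hspa1b, Dnajb1, Egr1, Atf3, Nr4a1 and Ier3. Fos and Junb were not among them, so cells with Fos or Junb UMIs could stay in. In the cells left, the log2 ratio of Socs3 was 2.16 in naive mice, 2.03 at 6 h and 1.70 at 14 days. That of Pim3 was 1.43, 1.16 and 0.53 in naive mice, at 6 h and at 14 days, so Pim3 was below 1.5-fold at 14 days in these cells. That of Pim1 was 0.04 in naive mice, 0.07 at 6 h and -0.01 at 14 days, against 0.20, 0.35 and 0.14 in all cells. Dusp1, an immediate early phosphatase, was 4.46, 4.42 and 4.16 higher in lung on the log2 scale.

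**Figure D3:**
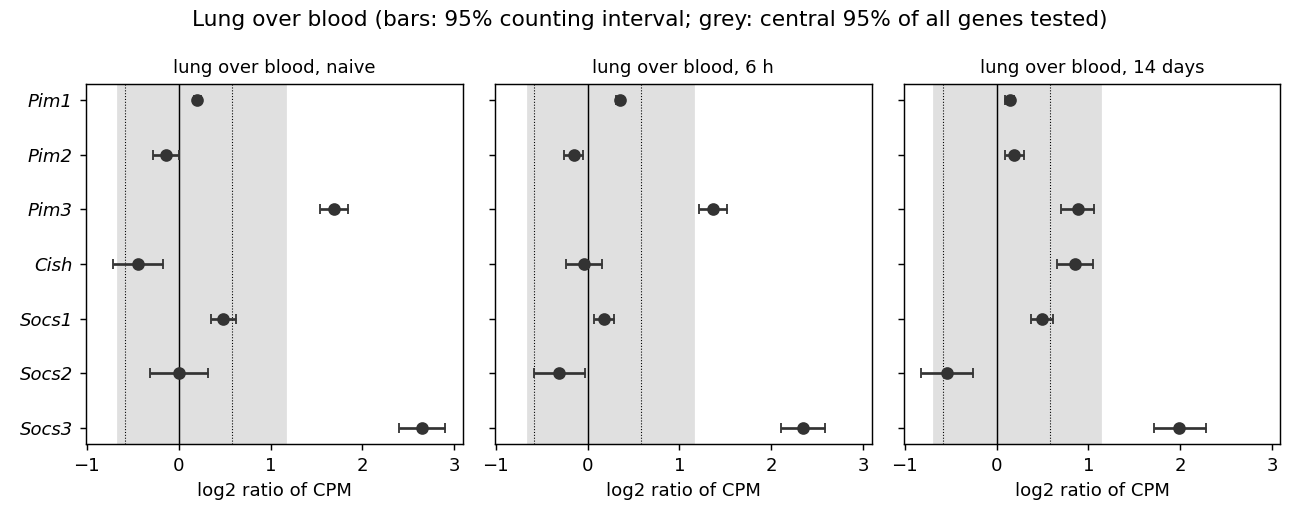
Log2 ratios of lung over blood CPM within each library (horizontal axes) for the 7 genes, with 95% counting intervals, dotted lines at 1.5-fold and a grey band for the central 95% of all genes tested. Socs3 and Pim3 were on the lung side in all 3 libraries, and Cish was on the lung side at 14 days but not in naive mice.

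NK cells mature from a CD27-positive to a CD11b-positive stage (genes Cd27 and Itgam), and cells of each group were classed by UMIs of both genes after thinning. The comparisons below are between cells of the same group, so each is of 1 library, and counting intervals between such classes do not hold the spread between mice. Socs3 was higher in Cd27-only than in Itgam-only cells of lung in all 3 libraries, at 67.3 against 24.5 CPM in naive mice, 69.8 against 27.0 CPM at 6 h and 44.9 against 17.7 CPM at 14 days. Socs2 was on the Cd27 side in all 6 groups, by log2 ratios of 0.33 in naive lung to 2.53 in blood at 14 days, and the interval lay above 0 in 5. Pim2 was higher in Cd27-only cells of blood in each library, from 45.8 against 30.9 CPM in naive mice to 121 against 52.2 CPM at 14 days. Cish was higher in Itgam-only cells of naive blood (10.4 against 5.82 CPM) but in Cd27-only cells of lung at 14 days (37.7 against 20.6 CPM). Markers of type 1 innate lymphoid cells (ILC1), which carry NK1.1 and NKp46 as well, were also higher in Cd27-only cells, at a sum of 349 against 111 CPM in naive lung and 421 against 57.1 CPM in blood at 14 days, and their part in these ratios was not tested.

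The time ratios were seen in each of the 4 Cd27 and Itgam classes for Pim2, with log2 ratios of 1.15 to 1.53 in lung at 14 days, 0.76 to 1.40 in blood at 14 days, 0.61 to 1.64 in lung at 6 h and 0.71 to 1.09 in blood at 6 h. Cish had 1.57 to 3.67 over the 4 classes in lung at 14 days. The 3.67 was that of cells with UMIs of both Cd27 and Itgam, which numbered 165 in naive lung. All 3676 naive lung cells held 177 Cish UMIs, so few entered this ratio. Socs3 and Pim3 were past 1.5-fold higher in lung over blood in all 4 classes of all 3 libraries, Socs3 by 2.44 to 3.52 in naive mice, 1.97 to 3.18 at 6 h and up to 2.18 at 14 days, and Pim3 by 0.71 to 2.08 over the 3 libraries.

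Cells with a UMI of Itga1 or Pmepa1, genes known to follow TGF-beta and tissue residency, were 8.22% of naive lung cells, 10.1% at 6 h and 34.9% at 14 days. Cish was higher in these cells in all 6 groups, with the interval above 0 in 5. In lung it had 28.4 against 13.4 CPM at 6 h and 43.1 against 23.5 CPM at 14 days. Cish was nonetheless higher at 14 days within both classes of lung cells, by 1.72 in cells without these UMIs and 1.96 in cells with them. Pim1 in lung at 14 days was lower in cells with them, at 301 against 426 CPM.

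Socs2 in blood was concentrated in such cells in naive mice and at 14 days, but not at 6 h. It had 27.4 against 5.45 CPM in naive mice. At 14 days it had 60.2 (95% CI 47.0 to 76.0) against 7.94 CPM (95% CI 6.61 to 9.46), in 144 and 1919 cells. At 6 h its log2 ratio in blood was 0.11 (95% CI -0.87 to 0.95). Markers of ILC1 and of T cells were also higher in these cells of blood in naive mice and at 14 days. In blood at 14 days the 5 ILC1 markers summed to 539 CPM in these cells against 73.0 CPM in the others, Cxcr6 alone to 151 against 5.08 CPM, and the 9 T cell markers to 1298 against 528 CPM. In whole groups the ILC1 markers summed to 70.5 to 146 CPM and the T cell markers to 479 to 582 CPM, with Cd3e at 5.04 CPM or less. The highest marker was Rora in the ILC1 sums, at 40.9 to 116 CPM, and Trbc1 in the T cell sums, at 266 to 336 CPM. In blood at 14 days over naive, 3 of 4 ILC1 markers tested were past 1.5-fold higher and 0 lower, against 0.949% and 3.01% of all genes. Of the 3, Cxcr6 and Tmem176b passed the level of 10 CPM only through blood at 14 days, so nothing is read from this share. When the 262 cells (12.7%) with a UMI of Cxcr6, Tmem176a, Tmem176b, Cd3d, Cd3e or Cd3g were left out of blood at 14 days, 51.5% of Socs2 UMIs went with them, and Socs2 had 6.57 CPM (95% CI 5.32 to 8.03). With the same cells left out of each group, the log2 ratio of Socs2 at 14 days over naive in blood was 0.23, below 1.5-fold, and that of lung over blood at 14 days was 0.09 instead of -0.54. In blood, 3 members instead of 4 were then past 1.5-fold at 14 days and 2 instead of 3 at 6 h, where Cish stood at 0.58. Cish in lung at 14 days stood at 1.94 and Pim2 at 1.40.

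Cells with a UMI of the interferon-induced genes Isg15, Ifit1 or Ifit3 had more Socs1 in all 6 groups, with the interval above 0 in 5 and the highest value in lung at 14 days, at 112 (95% CI 100 to 124) against 64.8 CPM (95% CI 61.7 to 68.0). Pim2 had more in 5 of 6 groups, such as 62.1 against 32.4 CPM in naive blood. Socs3 was higher in these cells of lung at 14 days, at 59.8 against 25.4 CPM, and Socs2 at 15.4 against 7.07 CPM. Cells with a UMI of Ifng, the interferon-gamma gene, had more Pim1 in all 6 groups, by log2 ratios of 0.16 to 0.56, and each interval lay above 0. In cells with a UMI of the proliferation genes Mki67 or Top2a, the log2 ratio of Socs1 ran from -1.02 in blood at 14 days to 0.19 in lung at 14 days, with the interval below 0 in 3 of 6 groups. That of Cish ran from -1.69 in blood at 14 days to -0.09 in naive blood, with the interval below 0 in 1 group.

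**Figure D4:**
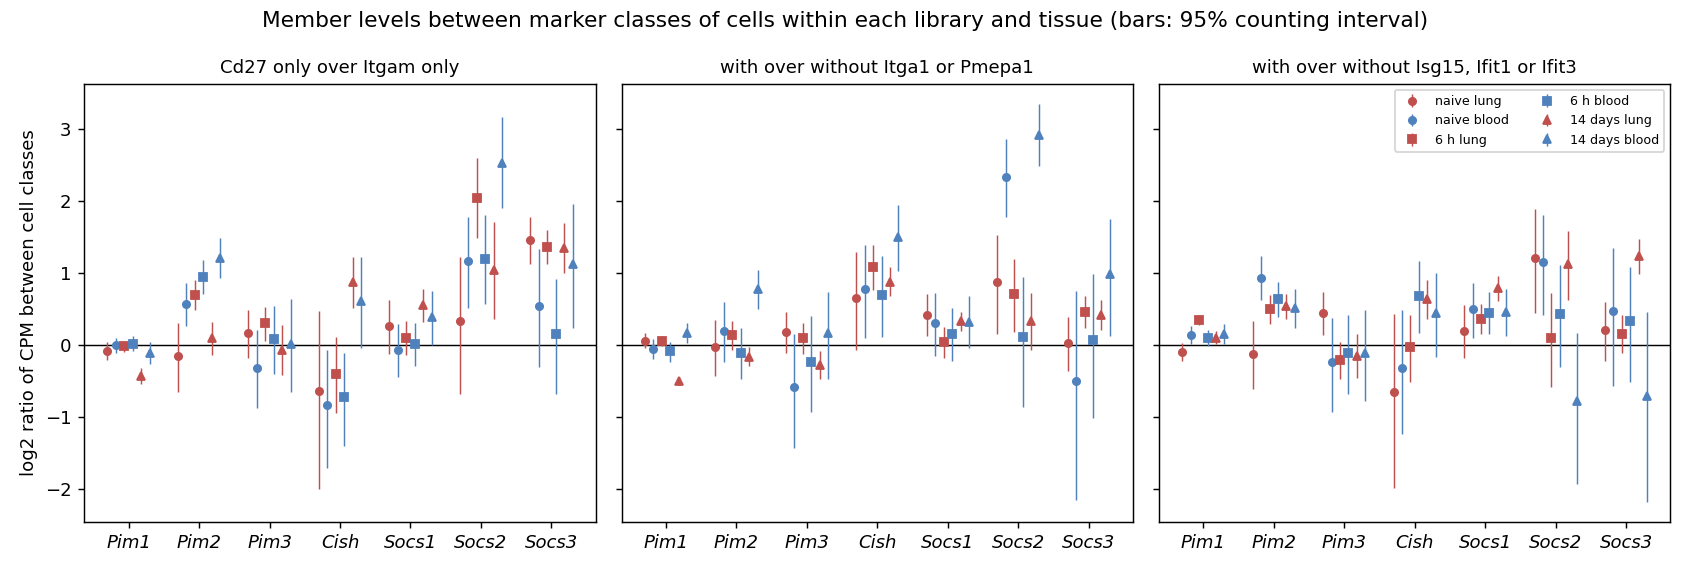
Log2 ratios of CPM between classes of cells within each group (vertical axis) for the 7 genes, with lung in red, blood in blue, circles for naive, squares for 6 h, triangles for 14 days and bars for 95% counting intervals. Left, Socs3 in lung and Socs2 in all 6 groups lay above 0 in Cd27-only cells; middle, Socs2 in blood at 14 days reached 2.92; right, Socs1 lay above 0 in all 6 groups.

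Across the 6 groups, which share 3 libraries and differ in depth, Pim3 and Socs3 had Pearson's r of 0.98, Pim2 and Cish 0.93, Pim2 and Socs1 0.83, and Cish and Socs1 0.81, of 21 pairs described. Among the genes most like Pim2 over these groups, of 3494 candidates, were Lars2 and Ccdc107 (r of 1.00 and 0.98), and those most like Cish were the ribosomal protein genes Rps2, Rpl7a and Rpl15 (0.99, 0.98 and 0.98). Socs1 was most like Rcc1, Isg15 and Rgl1 (0.96, 0.93 and 0.93), Socs3 like Csrnp1, P2ry14 and Ier5l (1.00 each), and Pim3 like Tmprss6, Abcb9 and Tex2 (1.00, 1.00 and 0.99). Pim1 was most like Tbl3, Gadd45b and Traf1 (0.98, 0.97 and 0.96) and Socs2 like Mrpl57, Metrn and Susd3 (0.99, 0.98 and 0.98). Within groups, thinned cells that held both a Cish and a Socs1 UMI numbered 73 in lung at 14 days where 43.0 would be found if the UMIs were placed independently, a ratio of 1.70 (95% CI 1.33 to 2.14), and in blood at 14 days the ratio was 2.18 (95% CI 1.49 to 3.08). It was 1.75 (95% CI 1.14 to 2.56) in blood at 6 h and 1.74 (95% CI 1.01 to 2.78) in naive blood, but 1.01 (95% CI 0.66 to 1.48) in lung at 6 h and 1.38 (95% CI 0.69 to 2.46) in naive lung, where the interval held 1. Cish and Socs1 were 1 of 21 pairs, and the excess was not particular to them. In lung at 14 days Cish and Socs3 had 1.62 (95% CI 1.07 to 2.36) and Pim2 and Socs3 1.52 (95% CI 1.14 to 1.98). Pim3 and Cish had 0.90 (95% CI 0.59 to 1.34) there.

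The other genes of the pathway are set beside the shares of all genes past 1.5-fold at 6 h, which were 0.487% higher and 0.0874% lower in lung and 0.283% and 0.234% in blood. None of 14 cytokine receptor genes tested, 11 JAK and STAT genes, 15 genes of the Pim pathway (substrates and the parallel Akt and mTOR arm), 6 partners of the SOCS box and 21 other feedback genes was past it in lung or blood. Of 15 genes listed as targets of STAT5 and IL-2 family cytokines, 1 was past it in each tissue, the serpin Serpina3g. Its log2 ratios were 1.20 in lung and 0.88 in blood. Among 14 interferon-induced genes, 2 were higher in lung at 6 h, Cxcl10 at 1.77 and Ly6e at 0.88, and 1 in blood, Ly6e at 0.74.

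At 14 days in lung, where 4.64% of all genes were past 1.5-fold higher and 10.9% lower, the lists held more. Of 11 JAK and STAT genes, 0 were past 1.5-fold higher and 4 lower. These were Stat4 at -0.96, which carries IL-12 signals, Stat3 at -0.78, Stat5b at -0.76 and Stat5a at -0.70. The IL-12 receptor chain Il12rb2 was at -1.57 and Il12rb1 at 0.75, the others of 15 receptor genes tested being within 1.5-fold. Of 21 other feedback genes, Dusp2 (1.18) and Usp18 (1.09), a brake on type I interferon signalling, were higher and Dusp5 (-1.01) and Ptprc (-0.60) lower. Of 18 interferon-induced genes, 9 were higher and 1 lower, with Ifit3 at 4.11, Cxcl10 at 3.95 and Irf8 at -0.71. Serpina3g (1.66) and Myc (1.28) were the higher of 15 STAT5 and IL-2 family targets, and Prf1 (-0.80) and Nfil3 (-0.63) the lower. In the Pim pathway 2 of 15 were higher, Myc and Rps6 (0.75), and 3 lower, among them Foxo1 (-0.95) and Foxo3 (-0.85). Rps6 is itself a ribosomal protein gene. The ribosomal protein genes named above as most like Cish were also higher, Rps2 with 2029 CPM against 1183 CPM in naive lung. In blood at 14 days, 0 of 11 JAK and STAT genes, 0 of 20 other feedback genes and 1 of 14 interferon-induced genes, Ly6e at 0.62, were past it, where 0.949% of all genes were past it higher and 3.01% lower.

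In lung over blood, the STAT3 gene itself was on the same side as Socs3, at 1.86 in naive mice, 1.90 at 6 h and 1.30 at 14 days. The gp130 gene Il6st was at 1.14 in naive mice, with 11.0 CPM in lung and 4.97 CPM in blood. In lung it had 9.10 CPM at 6 h and 7.88 CPM at 14 days, under the level of 10 CPM. Of the other receptor genes, Il6ra had 0.469 CPM, Lifr 0.298 CPM and Osmr 0.0852 CPM in naive lung. Others of the list had more, such as Il27ra with 42.4 CPM in naive lung and 59.6 CPM in naive blood. Il21r had 45.0 and 21.7 CPM and Il10ra 89.5 and 104 CPM in the same order. The part of these receptors in the level of Socs3 was not tested. Il12rb2 was at 1.95, 1.93 and 0.70 in the 3 libraries. Of 15 cytokine receptor genes tested in naive mice, 7 were past 1.5-fold higher in lung and 1 lower, against 6.50% and 3.95% of all genes.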

How the data were processed

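The authors aligned 10x Genomics 3′ reads to GRCm38.p6 (GENCODE M23, per the labels) with Cell Ranger (7.0.1 in the protocol, 7.1.0 in the matrix headers) and deposited raw UMI counts per gene and hashtag for all barcodes, 1388825 to 1796296 per library. Here, cells were barcodes with 800 to 5000 genes, no more than 6% of counts from mt- genes and at least 90% of hashtag counts from 1 tag, which gave the tissue. The 141 to 342 barcodes per library without such a tag (2.08% to 4.08%), doublets between tissues included, were left out. No doublet caller was run, so doublets within a tissue stayed in.

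Counts were summed per library and tissue and scaled to CPM. Intervals of levels are exact Poisson ones. Those of ratios of levels come from the exact binomial interval of 1 group's share of both groups' UMIs. Those of the difference between tissues in a time ratio are normal approximations from the UMI counts. For cells holding UMIs of both genes of a pair, they are Poisson intervals of the number observed, with the expected number held fixed. Only the binomial intervals of ratios were tested on simulated data. Classes and shares of cells used thinned cells, leaving out 6 to 86 per group under 3000 UMIs. The members and lists were chosen with earlier results of these data known. Besides the members, up to 2 genes per direction were named from each list, those with the largest ratios past 1.5-fold, and for each member the 3 genes with the highest r of log2 CPM, given 20 CPM in some group and a range of 0.5. Some further list genes were named for their levels or to complete a count. For Pim2, 1 of these genes is not reported here. Free RNA was limited by marker transcripts of foreign cell types, from the profile of barcodes holding 100 counts or fewer. Alternatives changed filters, hashtag rules, totals, cell weights, depth, free RNA, the deepest cells, stress, maturation and the fold, with 3 added after the data were seen. Python 3.11.15 with numpy 2.4.6, scipy 1.17.1 and pandas 2.3.3 was used.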

Additional observations from a re-analysis of the deposited data

Results flagged for a closer look

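At 14 days over naive, the ratios of Pim3 and Socs3 lay on opposite sides of 0 in lung and blood, with neither counting interval holding 0. The log2 ratio of Pim3 was -0.53 in lung and 0.27 in blood, a difference of -0.81, and that of Socs3 was -0.17 in lung and 0.48 in blood, a difference of -0.66. Relative to the median of genes with at least 50 CPM, Socs3 stood at 0.08 in lung and 0.68 in blood, on the same side. The median of all genes tested in lung was -0.19, close to the -0.17 of Socs3. Pim1 was also on opposite sides, at -0.05 in lung and 0.01 in blood, but its interval in blood held 0. With 1 library per condition the differences were not tested.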

How the results depend on the processing

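Under 16 alternatives, 679 of 735 single ratios moved by less than their counting interval, 56 moved by more and 0 turned sign once past 1.5-fold. Of 112 counts of members past 1.5-fold, 108 stayed within 1.5 times the main count. The other 4 came from a 2-fold rule, under which the count went from 2 to 0 in lung and from 3 to 0 in blood at 6 h, from 4 to 1 in blood at 14 days and from 3 to 1 in lung over blood at 14 days. Leaving out cells with ILC1 or T cell markers, an alternative chosen after seeing the data, took Socs2 in blood at 14 days from 0.83 to 0.23. Cish in blood at 6 h ranged from 0.50 to 0.66 and was past 1.5-fold in 9 of 15 settings. Pim3 in lung over blood at 14 days was past it in 14 of 15, and in lung at 14 days over naive it ranged from -0.59 to -0.28. Pim2 was past it in all 15 settings in each of the 4 comparisons over time, as was Cish in lung at 6 h and 14 days. Depth limits Socs2 and blood Socs3, which rest on 124 to 259 UMIs per group. It also limits the ratios of Cish to naive lung, where Cish had 177 UMIs, of which free RNA could be at most 18.8%. No paired analysis was possible because each condition is 1 library and no replicate numbers are given.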
